A study of Homo sapiens with 2 samples.

Results

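The genes of the NF-kB transcription factor family and of its IkB inhibitors were examined by RNA sequencing in HSC-1, an established human cell line of cutaneous squamous cell carcinoma. The cells had received either a control siRNA (siNC) or an siRNA directed at LINP1, a long noncoding RNA (siLINP1). The members are 10 of the 44591 genes of the count table and were picked by gene name: the 5 NF-kB subunit genes NFKB1, NFKB2, REL, RELA and RELB, and the 5 IkB family genes NFKBIA, NFKBIB, NFKBIE, NFKBIZ and BCL3. They were proposed with results of this same comparison known, so their differences are described here and none of them is tested. Each condition had 1 library of total RNA from cells grown in DMEM with 10% serum. By the sample labels the cells were transfected at 70% confluency, kept for 6 h without serum and then for 24 h with it, while the study's methods give a different confluency and time. The sources used here do not say which of the siLINP1 oligonucleotides was sequenced. No culture was repeated, and every interval below therefore reflects the counting of reads alone.

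NF-kB proteins act as dimers that bind kB sites in DNA. RELA, RELB and c-Rel (REL) carry a transactivation domain, whereas p50 and p52 are cut from the precursors p105 (NFKB1) and p100 (NFKB2) and do not. In resting cells the inhibitors IkBα (NFKBIA), IkBβ (NFKBIB) and IkBε (NFKBIE) hold dimers in the cytoplasm until the IKK kinase complex marks them for ubiquitination and destruction, and several of these genes are themselves classical NF-kB targets. IkBζ (NFKBIZ) and BCL3 are nuclear members of the IkB family that work with p50 or p52 dimers on chromatin. Keratinocytes use the pathway in their answers to cytokines and to foreign nucleic acids.

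Reads assigned to genes totalled 18829544 for siNC and 15383081 for siLINP1. The targeted gene LINP1 (chromosome 10, 6779344 to 6780901 of GRCh37, plus strand) had 167 reads in siNC against 23 in siLINP1, a log2 fold change of scaled reads of -2.65 (95% interval -3.35 to -2.02). Among 10 markers of squamous epithelium, KRT5, TP63, DSG3 and CDH1 were under 1 RPKM (reads divided by gene length in kilobases and by the library's total) in both libraries, whereas ITGB4 had 51.4 and 41.6 RPKM. The summed level of the 10 markers was 87.9 RPKM in siNC and 77.3 in siLINP1, most of it from ITGB4, while KRT14 had 7.89 and 3.46 RPKM. Summed over 8 mesenchymal markers it was 1553 and 1302 RPKM, nearly all from VIM. Of 8 blood cell markers only CD68 reached 1 RPKM in either library, while CD3E, MS4A1 and HBB had no read. Fewer cells expressing a gene and less RNA per cell cannot be told apart in these bulk libraries.

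To place the members' values beside their regulatory sequence, the RefSeq promoters were read (250 bases before to 50 bases after an annotated start, GRCh38.p14). The promoter table holds 14 promoters of 8 members, and RELB and NFKBIE were not found in it. The kB consensus was searched on both strands as a site of 10 bases made of 3 G, a purine, any base, A or T, 2 pyrimidines and 2 C. Matches on opposite strands often share bases, so a single palindromic site can count more than once. At least 1 match lay in 9 of the 14 promoters, and 7 of the 8 genes had one, against 5.91% of all 35116 promoters and 7.09% of all 27305 genes, or 9.1% of the 11050 protein-coding genes with at least 10 reads. In a stricter form (GGGA, any base, TTTCC), 6 of the 8 genes had a match, against 0.678% of all genes and 0.778% of those protein-coding genes. A looser form, with any base in place of A or T, gave 7 of the 8 genes, against 13.3% and 17.6%. A match describes these letters only and is not a measured binding site.

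A choice of promoters is shown 5′ to 3′ on the strand of the gene, with the kB matches in capitals. NFKB2, NFKBIB, NFKBIA and REL are members that were higher in siLINP1, and RELA and BCL3 are the members that were not. NFKB1 and NFKBIZ, which were also higher and had a match, are not printed. For NFKB2 and NFKBIB a start with a match was printed, while the start nearest to that of the count table had none. NFKB2 has 3 annotated starts and the third is printed, from chr10:102395455-102395754 on the plus strand. The NFKBIB sequence is that of its downstream start, from chr19:38899719-38900018 on the plus strand. NFKBIA is from chr14:35404700-35404999 on the minus strand, REL from chr2:60881324-60881623 on the plus strand and RELA, at its downstream start, from chr11:65662867-65663166 on the minus strand. BCL3 is from chr19:44748458-44748757 on the plus strand.
NFKB2: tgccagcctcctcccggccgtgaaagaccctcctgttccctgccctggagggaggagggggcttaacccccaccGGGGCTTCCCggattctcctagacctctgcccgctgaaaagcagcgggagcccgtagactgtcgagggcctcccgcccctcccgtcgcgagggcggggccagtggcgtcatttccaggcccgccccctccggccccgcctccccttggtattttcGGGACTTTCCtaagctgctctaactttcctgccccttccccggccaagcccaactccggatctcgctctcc
NFKBIB: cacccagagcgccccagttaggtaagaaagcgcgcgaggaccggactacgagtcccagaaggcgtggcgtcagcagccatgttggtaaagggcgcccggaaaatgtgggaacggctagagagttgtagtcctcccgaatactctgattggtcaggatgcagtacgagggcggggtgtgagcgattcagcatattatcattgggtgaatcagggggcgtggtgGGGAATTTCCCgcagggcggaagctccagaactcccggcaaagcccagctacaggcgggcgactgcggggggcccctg
NFKBIA: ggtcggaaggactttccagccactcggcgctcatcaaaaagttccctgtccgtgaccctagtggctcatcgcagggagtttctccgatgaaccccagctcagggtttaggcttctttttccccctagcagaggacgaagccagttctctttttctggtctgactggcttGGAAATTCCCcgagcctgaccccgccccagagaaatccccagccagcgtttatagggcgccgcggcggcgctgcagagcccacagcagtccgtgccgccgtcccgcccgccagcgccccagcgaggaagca
REL: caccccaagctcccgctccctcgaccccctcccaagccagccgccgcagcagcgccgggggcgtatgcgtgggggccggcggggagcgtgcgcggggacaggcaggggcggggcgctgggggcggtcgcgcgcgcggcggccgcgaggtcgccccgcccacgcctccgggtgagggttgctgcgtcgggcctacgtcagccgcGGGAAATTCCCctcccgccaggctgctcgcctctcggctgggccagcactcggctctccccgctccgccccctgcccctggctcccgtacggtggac
RELA: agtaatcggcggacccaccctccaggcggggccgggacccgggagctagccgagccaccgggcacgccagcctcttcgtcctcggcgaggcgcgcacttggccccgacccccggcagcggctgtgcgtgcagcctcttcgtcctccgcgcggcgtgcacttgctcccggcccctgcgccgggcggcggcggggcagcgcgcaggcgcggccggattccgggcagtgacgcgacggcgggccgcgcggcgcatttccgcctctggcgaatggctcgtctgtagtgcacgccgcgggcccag
BCL3: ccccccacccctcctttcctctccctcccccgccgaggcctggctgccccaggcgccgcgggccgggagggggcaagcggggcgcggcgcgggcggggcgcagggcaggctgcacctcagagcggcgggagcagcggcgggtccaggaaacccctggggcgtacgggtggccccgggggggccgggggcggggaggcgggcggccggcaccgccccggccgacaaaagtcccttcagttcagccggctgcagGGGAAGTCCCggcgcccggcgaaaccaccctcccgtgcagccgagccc
In NFKB2 the match GGGACTTTCC lay from base -21 to -12 and a further one from base -176 to -167 relative to the start. Its middle start had the palindrome GGGAATTCCC from base -107 to -98 and GGGGCTTTCC from -78 to -69, and its most upstream start had none. NFKBIA had GGAAATTCCC, which reads GGGAATTTCC on the other strand, from base -81 to -72. REL carried the same letters from -46 to -37, NFKB1 carried GGGAATTTCC from -49 to -40, and NFKBIB carried it from -28 to -19. NFKBIZ had GGGAATTTCC from -223 to -214 at its upstream start, and at its downstream start, which lies 21524 bases farther in GRCh37, GGGGTTTCCC from -239 to -230. BCL3 had GGGAAGTCCC past its start, from base 3 to 12. Neither RELA promoter held a match, also under the looser form, and neither did the upstream start of NFKBIB nor the downstream start of NFKB1 hold a consensus match. Read along the gene or against it, the 10 letters GGGAATTTCC therefore recurred in NFKB1, REL, NFKBIA, NFKBIB and NFKBIZ. All 14 promoter sequences matched GRCh37, the build of the count table, at 1 place each on their own chromosome and strand. Other chromosomes were not searched.

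Whether depletion of LINP1 goes with a change of the NF-kB family was read from the counts, scaled by median-of-ratios size factors of 1.08 (siNC) and 0.93 (siLINP1). Of the 10 members, 8 were higher in siLINP1-treated cells by more than 1.5-fold and 0 were lower by that fold, whereas 14.4% of the 19840 genes with at least 10 reads were higher and 13% were lower. Since the members were proposed from this contrast, nothing is read from that difference. With the median of 10 reference genes, among them GAPDH and ACTB, set to no change, the shares of all genes would be 26.4% and 6.82%. Every member had over 1000 reads summed over both libraries, and among the 7071 genes read as deeply 5.47% were above and 3.56% below the 1.5-fold limits. This limit of 1000 reads was chosen after seeing the data. The median log2 fold change was 0.99 for the 10 members, 0.99 for the 5 subunit genes and 0.98 for the 5 IkB genes, against -0.023 over all genes kept. NFKBIE, NFKBIB and NFKB2, 3 of the 10, were higher by more than 2-fold and 0 were lower, where all genes had 6.74% higher and 5.3% lower and the deeply read genes 1.4% and 0.269%. RELB, REL and NFKBIA lay so near to 2-fold that scaling by total count, by edgeR TMM factors or by reference genes brought the count to 6. The whole interval lay above 1.5-fold for NFKB2, REL, RELB, NFKBIA, NFKBIB and NFKBIE, and for 0 members below it. Of all genes 3.98% lay above in this way and 2.06% below, and of the deeply read genes 3.55% and 1.58%. The interval lay above no change for 8 members and below it for BCL3, against 23% and 25.6% of all genes and 31.7% and 40.7% of the deeply read genes.

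**Figure D1:**
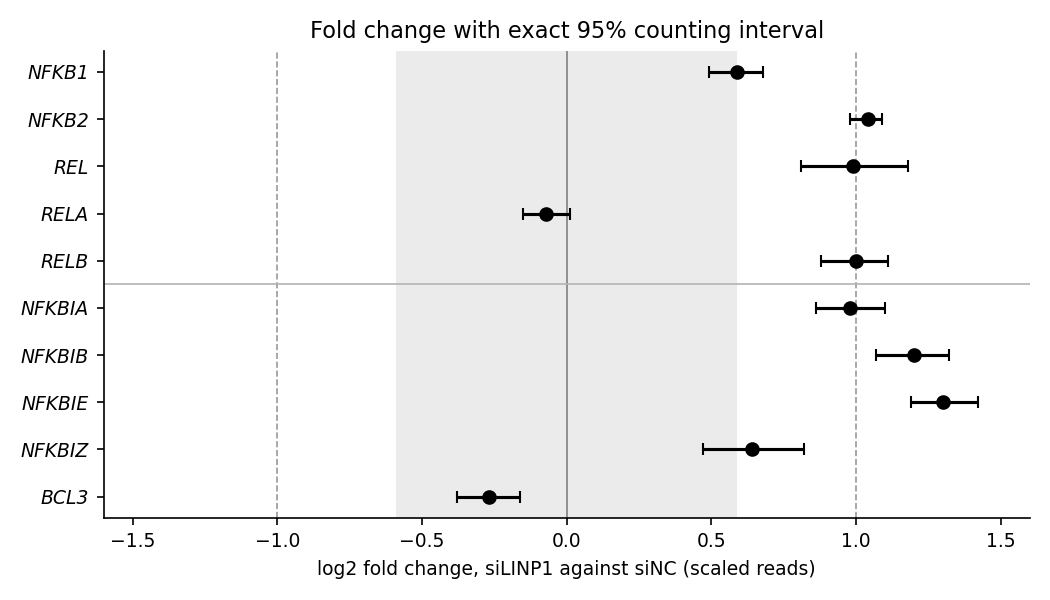
Log2 fold change of scaled reads, siLINP1 against siNC, for the 5 subunit genes (top) and the 5 IkB genes (bottom); bars are exact 95% counting intervals, the grey band spans 1.5-fold either way and dashed lines mark 2-fold. The points of 8 genes lie between 0.59 and 1.30, RELA lies at -0.07 and BCL3 at -0.27.

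Among the subunit genes, NFKB2 (chromosome 10, 104153867 to 104162286 of GRCh37, plus strand) encodes p100, the precursor of p52 and the inhibitor that holds RELB in the noncanonical pathway. Its reads numbered 4315 in siNC and 7668 in siLINP1, the most reads of any member in either library. Its log2 fold change of scaled reads was 1.04 (95% interval 0.98 to 1.09), and only 86 of the 7071 deeply read genes had a larger one. RELB (chromosome 19, 45504707 to 45541456, plus strand), the partner of p52, had 975 and 1684 reads and a log2 fold change of scaled reads of 1.00 (0.88 to 1.11). The genes of the noncanonical dimer were thus higher by nearly the same fold, with overlapping intervals. This is not particular to the pair, since REL (0.99, 0.81 to 1.18) and NFKBIA (0.98, 0.86 to 1.10) lay as near to RELB.

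REL (chromosome 2, 61108630 to 61155306, plus strand), which encodes c-Rel and is best known from lymphocytes, was the member with the lowest level. Its reads numbered 377 in siNC and 649 in siLINP1, or 2.55 and 5.38 RPKM. Its log2 fold change was 0.99, with an interval of 0.81 to 1.18, the widest of the 10, from the fewest reads. The count table gives REL a length of 7842 bases, while its canonical GENCODE transcript has 11108 bases, of which 9077 are 3′UTR. The RPKM of REL rests on the shorter length.

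NFKB1 (chromosome 4, 103422486 to 103538459, plus strand) encodes p105, the precursor of p50. It had 1585 and 2059 reads and a log2 fold change of scaled reads of 0.59 (0.49 to 0.68), and its interval reaches to either side of 1.5-fold. The interval lies wholly below those of NFKB2, RELB and REL, so NFKB1 was higher by less than each of these 3 within counting error. RELA (chromosome 11, 65421067 to 65430443, minus strand), which encodes the p65 subunit of the canonical dimer, had 2851 and 2346 reads. Its level was 58.7 RPKM in siNC and 59.2 RPKM in siLINP1, and its log2 fold change of scaled reads was -0.07 (-0.15 to 0.01). The direction of RELA depended on the scaling, with 0.01 by total count and 0.22 against reference genes.

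NFKBIE (chromosome 6, 44225903 to 44233525, minus strand), the gene of IkBε, had the largest difference of the 10 members under each scaling used. Its reads numbered 907 in siNC and 1938 in siLINP1. The log2 fold change was 1.30 (1.19 to 1.42), and 49 of the 7071 deeply read genes had a larger one. Its interval and that of NFKBIB lay wholly above 2-fold, which held for no other member. NFKBIB (chromosome 19, 39390340 to 39399534, plus strand), the gene of IkBβ, had 820 and 1625 reads, with a log2 fold change of 1.20 (1.07 to 1.32). NFKBIA (chromosome 14, 35870716 to 35873960, minus strand), the gene of IkBα, had 905 and 1546 reads and a log2 fold change of scaled reads of 0.98 (0.86 to 1.10), and its interval lies below that of NFKBIE and overlaps that of NFKBIB.

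The nuclear members of the IkB family differed less. NFKBIZ (chromosome 3, 101546834 to 101579869, plus strand), the gene of IkBζ, had 458 and 619 reads and a log2 fold change of scaled reads of 0.64 (0.47 to 0.82). BCL3 (chromosome 19, 45251978 to 45263301, plus strand), which helps p50 and p52 dimers to activate or to repress, was read 1571 times in siNC and 1126 times in siLINP1. It was the member with the lowest log2 fold change, -0.27 (-0.38 to -0.16), and less than 1.5-fold from no difference. This negative value holds under scaling by size factors, by total count (-0.19) and by TMM (-0.25), but against reference genes it was 0.02. BCL3 and RELB lie on the same strand of chromosome 19 and differed in direction, with intervals that do not overlap.

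**Figure D2:**
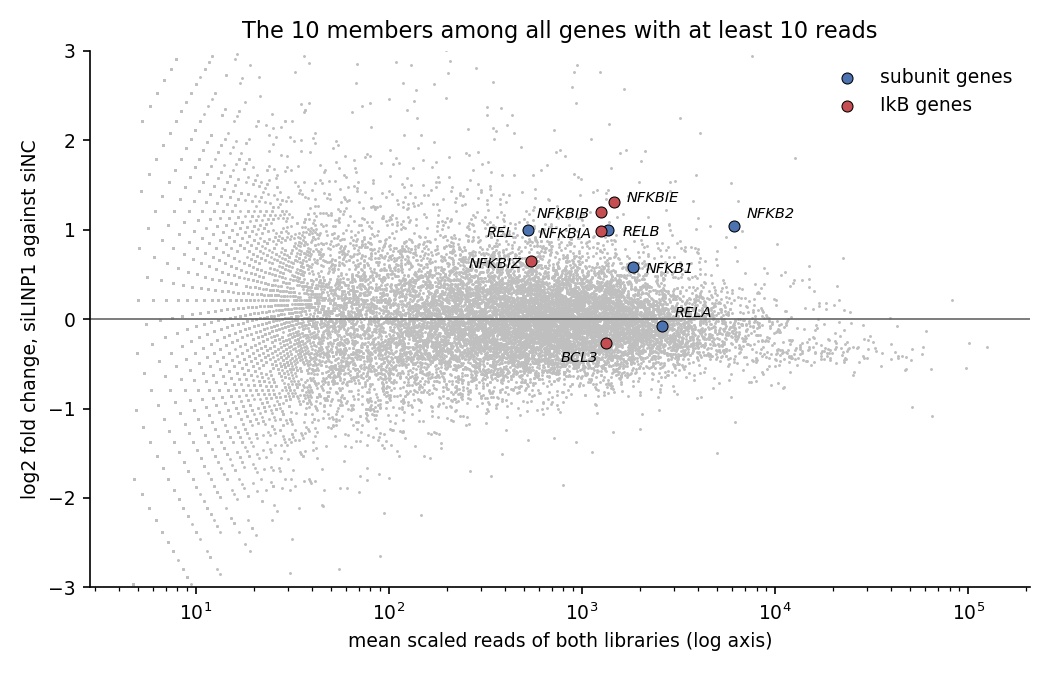
Mean scaled reads of both libraries (x, log axis) against log2 fold change (y) for the genes with at least 10 reads; grey points are all genes between -3 and 3 with reads in both libraries, blue points the subunit genes and red points the IkB genes. NFKB2, NFKBIE and NFKBIB lie above 1, where 6.74% of all genes lie, and RELA and BCL3 lie within the body of the cloud.

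On the scale of levels per gene length, the order of the members differed between the libraries. In siNC-treated cells NFKB2 (59 RPKM) and RELA (58.7 RPKM) were highest and did not differ beyond counting error (ratio 1, 95% interval 0.958 to 1.05). BCL3 followed with 44.8 RPKM, NFKBIA with 30.7 and RELB with 22.7. NFKB1 (19.3 RPKM), NFKBIE (18.7) and NFKBIB (18.6) could not be ordered within counting error, and NFKBIZ (5.8) and REL (2.55) were lowest.
In siLINP1-treated cells NFKB2 stood alone at 128 RPKM, 2-fold above NFKBIA at 64.1 RPKM (95% interval of the ratio 1.89 to 2.11). RELA had 59.2 RPKM, now below NFKBIA (ratio of NFKBIA to RELA 1.08, 1.02 to 1.16). NFKBIE (48.8 RPKM) and RELB (48), and likewise RELB and NFKBIB (45), were not apart beyond counting error. BCL3 followed with 39.3 RPKM, NFKB1 with 30.7, NFKBIZ with 9.59 and REL with 5.38. BCL3 was thus above NFKBIA, NFKBIE, RELB and NFKBIB in siNC and below each of them in siLINP1, and REL was lowest in both libraries.

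**Figure D3:**
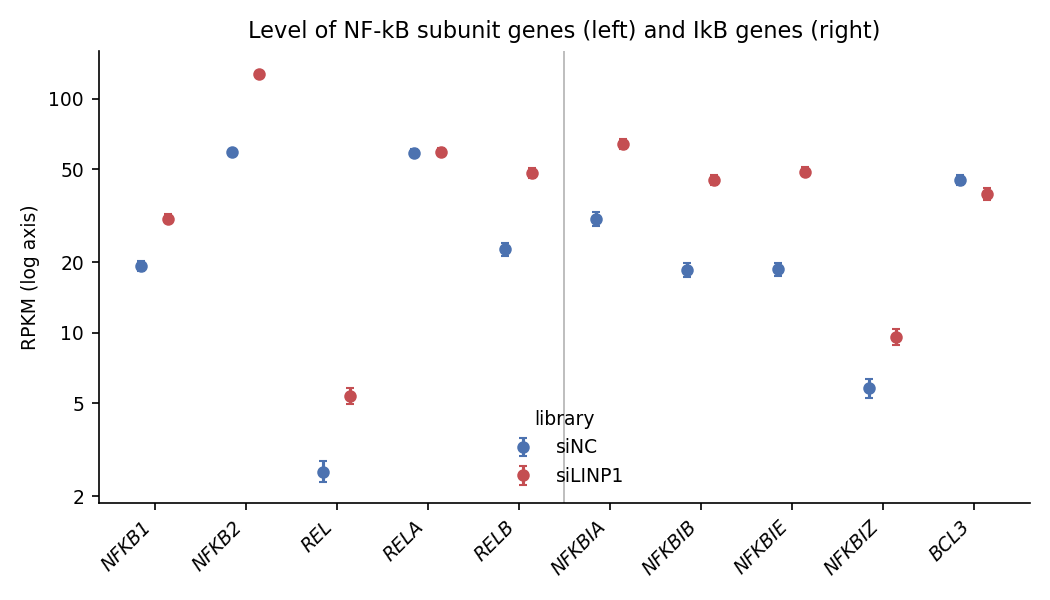
RPKM (y, log axis) of the 5 subunit genes (left) and the 5 IkB genes (right) in the siNC library (blue) and the siLINP1 library (red); bars are exact 95% Poisson intervals of the read count. NFKB2 stands at 59 and 128 RPKM, and the intervals of the libraries overlap for RELA only.

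The composition of the family follows from these levels. Summed over the 5 subunit genes, the level was 162 RPKM in siNC and 272 RPKM in siLINP1, of which NFKB2 made up 36.3% and 47.2% and RELA 36.2% and 21.8%. Relative to RELA, the level of RELB was 0.387 (95% interval 0.36 to 0.416) in siNC and 0.812 (0.763 to 0.864) in siLINP1. The level of REL was 0.0435 of that of RELA in siNC and 0.0909 in siLINP1. The summed level of the noncanonical genes NFKB2 and RELB was 1.05 times that of NFKB1 and RELA in siNC (1 to 1.09) and 1.96 times in siLINP1 (1.89 to 2.04). These ratios are of mRNA and do not give the amount of any dimer.

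The 5 IkB genes together had 118 RPKM in siNC and 207 RPKM in siLINP1. Their ratio to the subunit genes was 0.73 (0.704 to 0.756) and 0.761 (0.739 to 0.784), with intervals that overlap. Without the highest gene on each side (NFKB2 and BCL3 in siNC, NFKB2 and NFKBIA in siLINP1) it was 0.713 and 0.996. Within the IkB genes the classes parted. NFKBIA, NFKBIB and NFKBIE had together 67.9 and 158 RPKM, and their ratio to the subunit genes was 0.418 (0.4 to 0.437) in siNC and 0.582 (0.563 to 0.601) in siLINP1. NFKBIZ and BCL3 had together 50.6 and 48.9 RPKM, with ratios of 0.311 (0.296 to 0.327) and 0.18 (0.171 to 0.19). For each unit of RELA there was 0.522 of NFKBIA in siNC and 1.08 in siLINP1, 0.316 and 0.761 of NFKBIB, and 0.318 and 0.825 of NFKBIE.

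Other genes of the pathway were taken from lists written with the earlier results of these data known, and are given by their counts beside the 14.4% higher and 13% lower of all genes. Values in parentheses are the log2 fold change of scaled reads with its 95% interval, and reads are given for siNC first. Of 11 ligand genes, 8 had at least 10 reads, and 5 of these were lower and 1 higher by more than 1.5-fold, with a median log2 fold change of -1.09. IL1B, a cytokine that activates NF-kB, had 266 and 95 reads (-1.28, 95% interval -1.63 to -0.93), whereas IL1A, the ligand with most reads, had 261 and 258 (0.19, -0.06 to 0.45). TNF, the classical activator, had 0 reads in siNC and 2 in siLINP1. Of the ligand genes, 6 stayed under 1 RPKM in both libraries, so the list rests on few reads.

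Of 21 genes of receptors and adaptors, 20 were kept, with 4 higher, 2 lower and a median of -0.13. IL1R1, the receptor of IL-1, had 68 and 164 reads (1.48, 1.06 to 1.91). TNFRSF12A, the receptor of the noncanonical ligand TWEAK, had 4127 and 6757 reads (0.92, 0.86 to 0.98). TRAF3, an adaptor that restrains the kinase NIK and so the processing of p100, had 656 and 1055 reads (0.89, 0.75 to 1.04). The 2 lower genes were the receptors TNFRSF11A, with 37 and 18 reads (-0.83, -1.73 to 0.02), and TLR3, with 113 and 57 (-0.78, -1.26 to -0.31). TNFRSF1A, a TNF receptor, was lower by less than 1.5-fold, at 5515 and 3615 reads (-0.40, -0.46 to -0.34). So were LTBR and CD40, receptors that also feed the noncanonical pathway, at -0.23 (-0.30 to -0.15) and -0.53 (-0.86 to -0.19). The TWEAK gene itself, TNFSF12 of the ligand list, had 45 and 14 reads (-1.48, -2.46 to -0.58). IRAK1, the adaptor kinase with most reads, had 9400 and 8171 reads (0.01, -0.04 to 0.05).
All 10 genes of the IKK complex and its upstream kinases were kept, and 0 of them was past 1.5-fold in either direction, with a median of 0.04. TAB2, which couples TAK1 to ubiquitin chains, had the most reads, 1346 and 1359 (0.22, 0.11 to 0.33). MAP3K14, which encodes NIK, the kinase of the noncanonical pathway, had 951 and 1183 reads (0.52, 0.40 to 0.65), and scaling by total count or by reference genes put it, as 1 of the 10, above 1.5-fold. Among 13 genes of the ubiquitin ligases that act on IkB or build linear chains, 1 was higher and 1 lower, with a median of -0.12. UBE2D3, a ubiquitin-conjugating enzyme, had 4061 and 3576 reads (0.03, -0.04 to 0.09).

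Of 14 deubiquitinases and other negative regulators, 13 were kept, with 4 higher, 0 lower and a median of 0.33. TNFAIP3, which encodes the ubiquitin-editing enzyme A20, had 718 and 2006 reads (1.69, 1.57 to 1.82). CYLD, a deubiquitinase that is also a skin tumour suppressor, had 536 and 1370 reads (1.56, 1.42 to 1.71). ZC3H12A, the RNase Regnase-1, had 356 and 655 reads (1.09, 0.90 to 1.28), and TNIP1, a partner of A20 and the gene of this list with most reads, had 2903 and 3009 (0.26, 0.19 to 0.34). The log2 fold changes of TNFAIP3 and CYLD were larger than that of any of the 10 members, and the interval of TNFAIP3 lay above all of theirs.

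Of 32 NF-kB target genes outside the members, 29 were kept, and 16 of these lay above and 2 below the 1.5-fold limits, with a median log2 fold change of 0.73. The whole interval lay above 1.5-fold for 14 and below it for 2, against 3.98% and 2.06% of all genes. The 2 below were CCL2, a chemokine with 119 and 42 reads (-1.29, -1.84 to -0.77), and IL1B (-1.28, -1.63 to -0.93). CCL5, a chemokine, had 340 and 2000 reads (2.77, 2.60 to 2.94). TRAF1, an adaptor of TNF receptors, had 287 and 1074 reads (2.11, 1.92 to 2.31), and BIRC3, the ubiquitin ligase cIAP2, had 969 and 3077 (1.88, 1.77 to 1.98). IER3, the target with most reads, had 3303 and 3586 reads (0.33, 0.26 to 0.40). This list shares TNFAIP3 with the negative regulators and LTB, TNF and IL1B with the ligands. VCAM1 and SELE had no read in either library.

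**Figure D4:**
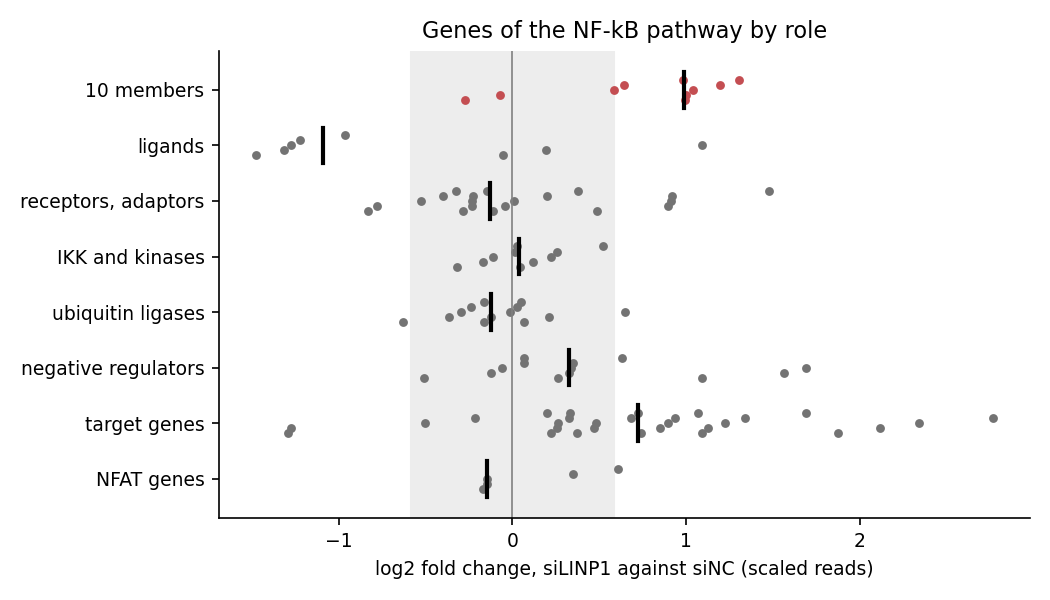
Log2 fold change of scaled reads, siLINP1 against siNC, for the 10 members (red) and for genes of the NF-kB pathway by role (grey); each point is 1 gene with at least 10 reads, black bars are medians and the grey band spans 1.5-fold either way. The median is 0.99 for the members, 0.73 for the target genes and 0.04 for the IKK complex and upstream kinases.

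Reads from neighbouring genes were compared with those of the members, since it is not stated in the sources used here whether reads were counted by strand. In the GENCODE annotation of GRCh37, SIRT2 on the opposite strand shares 40 of 2324 exon bases with NFKBIB (1.72%), and NXPE3 on the same strand shares 3.29% of those of NFKBIZ. SIRT2 had 626 and 633 reads (log2 fold change 0.23, 95% interval 0.06 to 0.39) and NXPE3 1199 and 961 reads (-0.11, -0.23 to 0.01). Neither neighbour differed by 1.5-fold, though SIRT2 was higher in siLINP1, as NFKBIB was. SLC35B2, which lies within 2000 bases of NFKBIE, had 1029 and 697 reads (-0.35, -0.49 to -0.21), the opposite sign to NFKBIE. CLASRP, within 2000 bases of RELB, had 1976 and 1725 reads (0.01, -0.08 to 0.11). Whether reads of adjacent genes have a part in the differences of RELB, NFKBIB, NFKBIE and NFKBIZ was not tested. PSD, next to NFKB2, had few reads, 35 and 54 (0.84, 0.20 to 1.49), and the noncoding gene LOC105377621, which overlaps NFKB1 by 1158 bases on the opposite strand, had 14 and 13. REL shares 5702 exon bases, 33.3% of its own, with an unnamed noncoding gene on the same strand that is not a row of the table used here, so reads of the 2 genes cannot be told apart there.

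The transcripts of the members were also compared for elements that the choice of genes did not use. AU-rich pentamers (ATTTA in the DNA letters), which occur in short-lived mRNAs, were present in the 3′UTR of 5 of the 10 canonical transcripts, against 72.4% of 13537 protein-coding genes with at least 10 reads. This comparison was not adjusted for length. Apart from REL and NFKBIZ (1651 bases), the members had 3′UTRs shorter than those genes' median of 1298 bases, with 57 in NFKBIB and 148 in NFKB2. REL had 25 of them in 9077 bases, and NFKB1, NFKBIA and NFKBIZ had 3 each. NFKB2 had 1, whereas RELA, RELB, NFKBIB, NFKBIE and BCL3 had 0. Members with pentamers and members without (RELB, NFKBIB and NFKBIE) were both among the genes higher by more than 1.5-fold. RELA and BCL3, which were not higher, had none. The intervals of NFKB1 and NFKBIZ, both with pentamers, reach to either side of 1.5-fold. The share of all genes with pentamers that were higher was not taken, so nothing is read from this.
The seed of an siRNA (bases 2 to 8 of its guide strand) can pair with other mRNAs, and both listed siLINP1 oligonucleotides were therefore searched. Their guide strands, taken as the reverse complement of the listed target sequences, are printed with the seed in capitals, in DNA letters.
siLINP1_01: tCTGAAGTcccgcagttgg
siLINP1_02: tCTTGCAGgctggagagtg
A site of 7 bases for either seed was found in the 3′UTR of REL and NFKBIZ (siLINP1_01) and of NFKBIE (siLINP1_02), 3 of the 10 members, against 25.7% of the protein-coding genes. These 3 genes were higher in siLINP1, with log2 fold changes of 0.99, 0.64 and 1.30. In the whole transcript NFKB2 also had a site, while NFKB1, RELB, NFKBIA and NFKBIB, which were higher in siLINP1, and RELA and BCL3, which were not, had none. The share of all genes with a site in the whole transcript was not taken. Whether these elements have a part in the differences was not tested.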

How the data were processed

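Total RNA of siNC- and siLINP1-treated HSC-1 cells (1 library each) was sequenced by the authors on an Illumina HiSeq instrument, aligned to GRCh37/hg19 with Tophat2 and counted with HTSeq. The submitters' processing notes also name HISAT2, HISAT and Bowtie2. Versions, annotation and strand setting are not given in the sources used here. The authors deposited raw read counts per gene and RPKM values, recalculated here exactly from the counts, the table's gene lengths and the library totals. The table's 12 other columns of per-sample values were not used.

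Size factors (median of ratios) scaled the counts, and genes with at least 10 reads over both libraries were kept. Each fold carries a 95% interval, converted from the exact (Clopper-Pearson) interval for the fraction of its reads that came from siLINP1. Poisson intervals were used for RPKM and a normal approximation on the log scale for ratios of RPKM, all for counting error only. No p-value was computed. The members, the gene lists and the rule for names were chosen with earlier results of these data known: all members, LINP1, and from each list up to 3 genes with the whole interval beyond 1.5-fold plus the gene with most reads. Further genes, such as MAP3K14, TNF, TNFSF12, TNFRSF1A, TNFRSF11A, TLR3, LTBR, CD40, CCL2, VCAM1, SELE, NFATC3 and ACTB, were named with their values in view. Alternatives were total-count, TMM and reference-gene scaling, pseudocounts of 1 and 5, and other read minimums. Promoters are from RefSeq (GRCh38.p14) and transcripts from GENCODE on GRCh37. The interval calculation was tried on counts simulated with counting error alone, which cannot speak to variation between cultures. Software was R 4.3.3 with edgeR 4.0.16 (TMM factors only) and Python 3.11.15 with scipy 1.17.1, numpy 2.4.6, matplotlib 3.10.9 and pandas 2.3.3.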

Additional observations from a re-analysis of the deposited data

How the results depend on the processing

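No paired analysis was possible because each condition had 1 library. Under scaling by total count, TMM factors or reference genes and with pseudocounts of 1 and 5, 8 members exceeded 1.5-fold upwards and 0 downwards, as in the report. Members higher by more than 2-fold numbered 3 with size factors and pseudocounts, but 6 by total count, TMM and reference genes. Reference genes moved the median of all genes by 0.30 and that of the members to 1.28, and gave 26.4% and 6.82% of all genes higher and lower by 1.5-fold and 11.4% and 3.06% by 2-fold. A pseudocount of 5 gave 4.15% and 2.57% by 2-fold. The share of all genes past a fold depends on the minimum of reads. With 1 read it was 23.9% (higher) and 21.9% (lower) by 1.5-fold and 17.5% and 14.9% by 2-fold, with 100 reads 8.72%, 6.77%, 2.71% and 1.11%, and with 1000 reads, chosen after seeing the data, 5.47%, 3.56%, 1.4% and 0.269%. Of the listed pathway and NFAT genes, each counted once, 25 of 97 were higher and 9 lower by 1.5-fold, beside 14.4% and 13% of all genes. At 100 reads 22 of 86 were higher and 5 lower, beside 8.72% and 6.77% of all genes. At 1000 reads 14 of 59 were higher and 1 lower, beside 5.47% and 3.56%. Without the highest gene on each side, the ratio of IkB to subunit levels was 0.713 in siNC and 0.996 in siLINP1, where the gene left out among the IkB genes differed (BCL3 and NFKBIA).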

Other observations

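The NFAT genes, whose DNA-binding domain is related to that of the NF-kB subunits, gave a description of a neighbouring family. Of its 5 genes, 1 was higher by more than 1.5-fold and 0 were lower, with a median log2 fold change of -0.14, beside 14.4% higher and 13% lower of all genes. NFAT5, the most read of them and an osmotic stress factor, had 1841 and 2430 reads (0.61, 95% interval 0.52 to 0.70). NFATC3 had 1466 and 1148 reads (-0.14, -0.26 to -0.03). Of the IkB-like genes outside the 10 members, NFKBID had 86 reads in each library (0.21, -0.24 to 0.66) and NFKBIL1 had 585 and 477 (-0.08, -0.26 to 0.09).

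The 10 reference genes were not level. Their median log2 fold change was -0.30, with GAPDH at -0.54 (124059 and 73563 reads), PGK1 at -0.74 (12778 and 6622 reads) and ACTB at 0.01. A ratio of a member to GAPDH would therefore be larger than the values of the report, and a ratio to ACTB nearly equal to them.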
